A study of Caenorhabditis elegans with 2 samples.

Results

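The F37B4.10 locus is the stretch of Caenorhabditis elegans chromosome V around the gene whose tagged protein was immunoprecipitated, and it is described here with its neighbours folt-2, str-39, ifc-1, sre-24 and srh-243. Its members were chosen by position, as every peak of the ranked lists whose summit fell in a window of 85 kb around F37B4.10. That rule takes 116 of 115634 peaks of the joint ranked list, 70 of 58046 peaks of replicate 1 and 66 of 63045 peaks of replicate 2. The 6 genes are among 26 protein-coding genes in the window, of 19985 in the annotation. The window and genes were selected on their signal and peaks in these same lists, so all values below are a description with no test.

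The study holds 1 group of 2 biological replicates and no comparison group. Chromatin came from pooled whole young adults of strain OP374, 61 h old and synchronised by starving L1 larvae after bleaching. This single line carries the integrated array wgIs374, labelled F37B4.10::TY1 EGFP 3xFLAG(P000012_E03) with unc-119(+), over unc-119(tm4063). An antibody against GFP recovered the tagged protein with its DNA, in fragments of 200 to 800 bp. The labels name no deletion of the worms' own F37B4.10 gene, and a peak list does not tell its DNA from that of the transgene. Neither the number of transgene copies nor the stretch of genome they carry was given in the sources used here.

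Chromatin immunoprecipitation with sequencing (ChIP-seq) counts the DNA fragments recovered with a protein, and a peak is a place where they pile up. RefSeq annotates F37B4.10 as a protein with a C2H2-type zinc finger domain, a fold that in many transcription factors contacts DNA. Worm transcription factors are often studied with transgenes that carry a large genomic fragment holding the tagged gene and its neighbours, with the unc-119 gene as a rescue marker. The neighbours have other roles. The folt genes form a family of folate transporters, ifc-1 encodes an intermediate filament protein of the cytoskeleton, and str-39, sre-24 and srh-243 belong to large families of G-protein-coupled chemoreceptors, many of which act in sensory neurons.

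The 4 peaks of highest signal in the window are shown as sequence because they have the highest values of the raised stretch. Of these 3 lie almost wholly in coding sequence, while 1 has an intergenic summit. Each is the plus strand of ce11 (WBcel235, RefSeq), written 5′ to 3′, with annotated coding bases in capitals and all other bases in lower case. The intergenic peak is shown up to the annotated end of folt-2 only, as 251 bases, and the others are whole peaks of 276 bases.

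Between srh-243 and folt-2, chrV:2872214-2872464: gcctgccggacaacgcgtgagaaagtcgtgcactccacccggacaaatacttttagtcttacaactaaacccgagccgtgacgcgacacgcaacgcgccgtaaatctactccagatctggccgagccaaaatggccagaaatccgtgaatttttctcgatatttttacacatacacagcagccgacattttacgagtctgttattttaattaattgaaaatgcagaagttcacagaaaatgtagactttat

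folt-2 coding peak, chrV:2873009-2873284: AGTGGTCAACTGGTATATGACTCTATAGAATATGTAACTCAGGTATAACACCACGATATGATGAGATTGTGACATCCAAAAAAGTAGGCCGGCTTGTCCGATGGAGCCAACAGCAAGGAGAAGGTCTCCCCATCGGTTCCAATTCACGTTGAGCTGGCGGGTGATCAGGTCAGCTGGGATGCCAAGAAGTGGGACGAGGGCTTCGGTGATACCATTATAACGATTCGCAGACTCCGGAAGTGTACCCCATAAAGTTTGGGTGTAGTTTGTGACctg

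ifc-1 coding peak, chrV:2883159-2883434: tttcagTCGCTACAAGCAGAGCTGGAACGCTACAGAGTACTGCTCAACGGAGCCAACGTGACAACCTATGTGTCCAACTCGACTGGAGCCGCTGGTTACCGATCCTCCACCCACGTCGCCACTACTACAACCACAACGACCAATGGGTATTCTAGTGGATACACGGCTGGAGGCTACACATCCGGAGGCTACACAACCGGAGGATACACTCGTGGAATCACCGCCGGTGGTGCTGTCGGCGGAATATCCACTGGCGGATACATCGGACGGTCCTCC

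F37B4.10 coding peak, chrV:2876494-2876769: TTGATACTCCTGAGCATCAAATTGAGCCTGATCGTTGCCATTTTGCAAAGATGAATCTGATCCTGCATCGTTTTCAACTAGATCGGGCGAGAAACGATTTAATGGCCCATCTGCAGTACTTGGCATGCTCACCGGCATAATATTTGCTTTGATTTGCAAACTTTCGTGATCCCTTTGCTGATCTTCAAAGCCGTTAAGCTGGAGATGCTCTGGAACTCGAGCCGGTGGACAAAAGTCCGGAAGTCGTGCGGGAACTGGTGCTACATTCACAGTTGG

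The printed stretch between srh-243 and folt-2 stops at the border of folt-2 and holds no coding base. The whole peak runs on to 2872489, inside folt-2, and its coding share is not given here. Of the whole peaks, 98.9% of the folt-2 peak, 97.8% of the ifc-1 peak and 100% of the F37B4.10 peak are coding. Their GC content ran from 44.2% in the printed intergenic stretch and 46.7% in F37B4.10 to 48.6% in folt-2 and 56.5% in ifc-1.

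Signal was high over a compact stretch that holds F37B4.10, folt-2, srh-243, str-39, ifc-1 and the first bases of sre-24, and was near the level of the rest of chromosome V in the window outside it. Signal is the authors' own value per peak, on a scale that is not stated, and is used within a list. To find the edges, signal was summed in bins of 5 kb, and a bin was called raised above the 95th percentile of bins on chromosome V outside the window, a summed signal of 262 in the joint list. Outside the window 209 of 4168 bins were raised, or 5.01%. In the window the longest run of raised bins, bridging single bins below the limit, covered 30 kb at chrV:2855001-2885000 and is called the block. It ran from 22.6 kb to the left of the annotated start of F37B4.10 to 7.39 kb to its right. F37B4.10 lies on the minus strand at chrV:2875734-2877609 and reads leftwards, so most of the block lies downstream of it.

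The bins of the block show a high right part and a lower left part. Summed joint signal was 698 in the bin that holds most of folt-2 and all of srh-243, 412 in the bin of F37B4.10 and 576 in the bin of ifc-1. To the left, the bin with srj-55 and srj-54 held 336 and the next, with srh-270 and srh-272, held 322. The bin with srh-240 and srh-241 held 206, below the limit, and was bridged. A separate raised bin, at 266, lay 29.9 kb to the right of the F37B4.10 start over zmp-3, a matrix metalloprotease gene, and it held 11 peaks of which the highest had a signal of 50.7. In the other joint list this bin was at 262 and not raised.

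**Figure D1:**
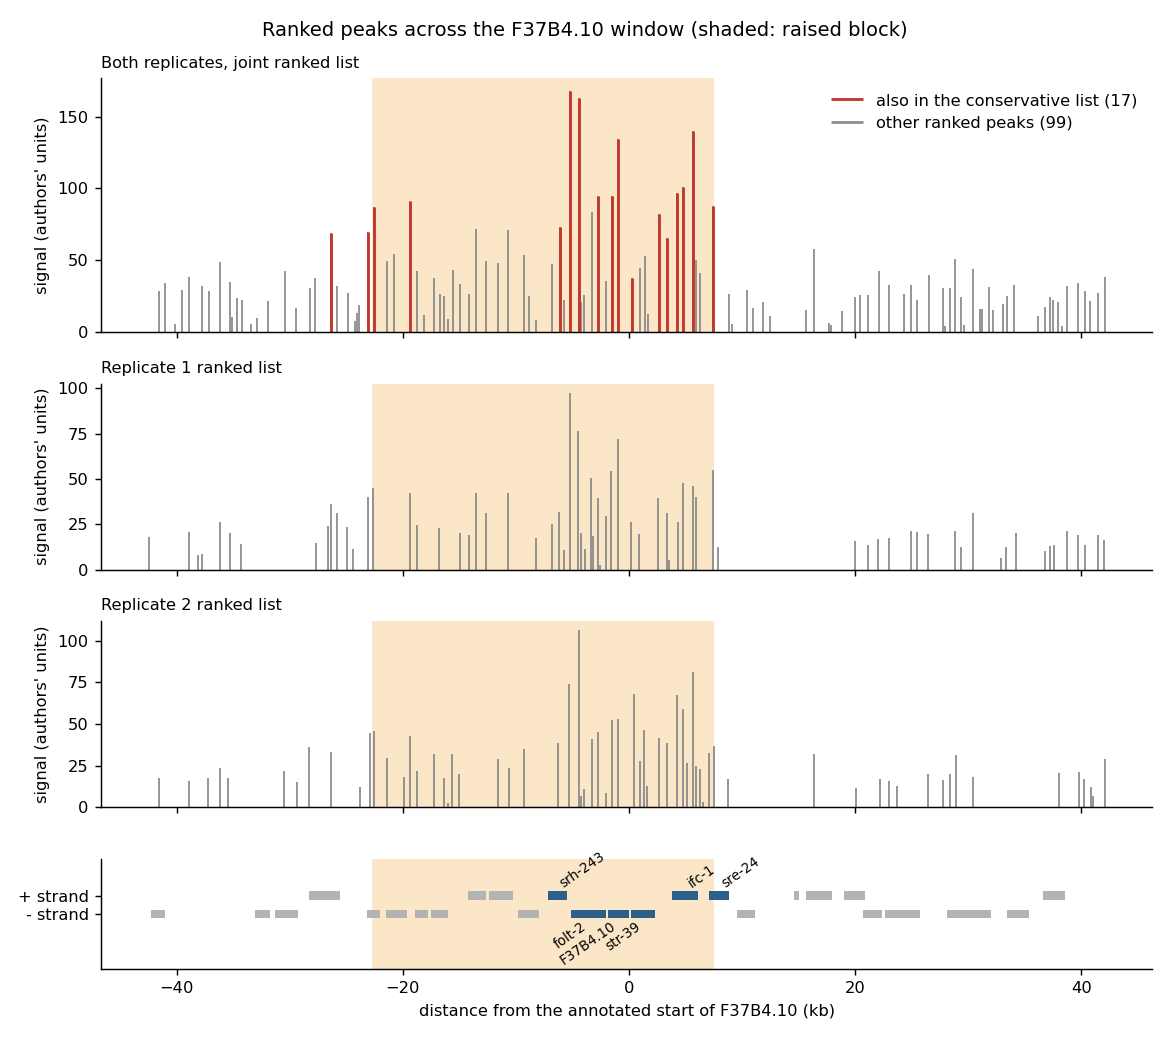
Signal of each ranked peak in the authors' units (y axes) by distance in kb from the annotated start of F37B4.10 (x axis), for the joint list, replicate 1 and replicate 2, with protein-coding genes by strand below (blue marks the 6 listed genes) and the 30 kb block shaded. The 17 red conservative peaks cluster in and beside the block, and the peaks above 100 in the joint list all lie between srh-243 and ifc-1.

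The right edge was at the same place in every list, and the left edge was not. The right edge was at 2885000 in both joint lists, in replicate 1 and in replicate 2. The left edge was at 2855001 in both joint lists, at 2850001 in replicate 1 and at 2870001 in replicate 2. The replicates' blocks thus shared 15 kb, from srh-243 to the first bases of sre-24, and differed in how far they went to its left. The bin of srj-55 and srj-54 was raised in both, at 112 against a limit of 106 in replicate 1 and at 158 against 128 in replicate 2. In replicate 2 the bins between it and the shared stretch were at 104 and 88.1, not raised, and the rule bridges single bins only. In that shared stretch the median joint signal was 65.3 over 23 peaks, against 43.0 over 20 peaks in the left part of the block. Replicate 1 had medians of 31.1 in the shared stretch and 27.8 in the left part, and replicate 2 had 39.9 and 29.2. The difference was larger in replicate 2.

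The step at the right edge was sharper than at the left in the joint list. Over the 10 kb inside the right edge the median joint signal was 59.1 over 14 peaks, against 20.5 over 9 peaks in the 10 kb outside it. Over the 10 kb inside the left edge it was 42.5 over 15 peaks, against 28.9 over 12 peaks outside. In the replicates the right edge appeared mainly in the number of peaks. Replicate 1 had 13 peaks inside the right edge and 2 outside, and replicate 2 had 17 inside and 3 outside. At the left edge the counts in replicate 1 were 8 inside and 7 outside, and in replicate 2 they were 10 inside and 6 outside. The few peaks just outside the right edge include a strong one in sre-24. Median signal there was 31.1 inside and 33.7 outside in replicate 1, and 38.7 inside and 32.2 outside in replicate 2.

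Within the block weak peaks as well as strong ones had higher signal than peaks elsewhere. The block was defined on the summed joint signal, so this gives the size of the shift and no independent support for it. In the joint list the 43 block peaks had a median signal of 49.3, against 23.2 over 24538 peaks on the rest of chromosome V, a ratio of 2.12. The ratio of block to rest was 2.50 at the 10th percentile, 2.03 at the 25th, 2.52 at the 75th and 2.34 at the 90th. These ratios pool unlike parts of the block. In the shared stretch the ratio to the rest was 2.75 at the 10th percentile, 2.81 at the median and 3.24 at the 90th. In the left part it was 1.37 at the 10th percentile, 1.85 at the median and 1.71 at the 90th. The 73 peaks of the window outside the block had a median of 25.6, a ratio of 1.10 to the rest of the chromosome.

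Each replicate showed the higher signal with its own list. The joint list that defined the block came from both replicates, so this is no independent support for it either. In replicate 1 the median was 31.1 over 33 block peaks, against 15.9 over 11926 peaks on the rest of chromosome V, and in replicate 2 it was 32.2 over 37 block peaks, against 18.7 over 13008. The ratio was 1.96 in replicate 1 and 1.73 in replicate 2. Outside the block the window's medians were 18.1 in replicate 1 and 17.7 in replicate 2, near those of the rest of the chromosome. The 10th percentile in replicate 2, 9.91 in the block and 8.41 on the rest of chromosome V, was much closer than the median. The ratio of block to rest rose from 1.18 at the 10th percentile to 2.26 at the 90th in replicate 2. In replicate 1 it rose from 1.72 to 2.07.

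**Figure D2:**
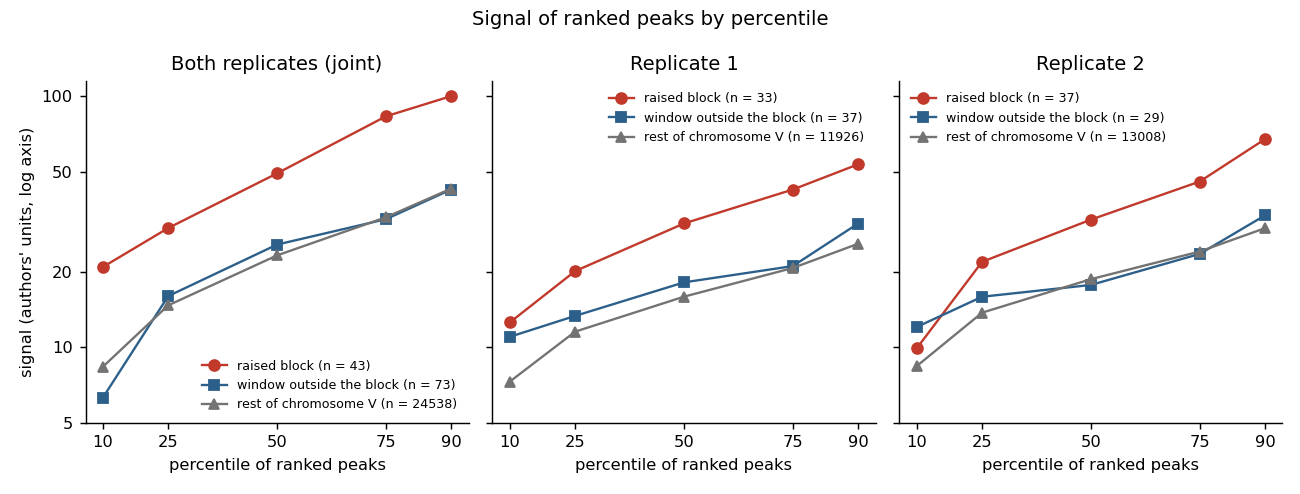
Signal (y axis, log scale, authors' units) at the 10th to 90th percentile of ranked peaks (x axis) for the block, the window outside the block and the rest of chromosome V, in the joint list and in each replicate. The block lies above the rest at each plotted percentile, with medians of 49.3 against 23.2 in the joint list, and the window outside the block lies near the rest at the median (25.6).

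Peaks were also denser in the block, by a smaller factor in the joint list than in the replicates. The number of peaks adds to the summed signal that defined the block, so this is no independent support for it. The block held 14.3 joint peaks per 10 kb, against 13.3 in the window outside it and 11.8 on the rest of chromosome V. Replicate 1 had 11.0 per 10 kb in the block, against 5.72 on the rest of chromosome V, and replicate 2 had 12.3 against 6.24. Most of that excess lay in the shared stretch, at 15.3 in replicate 1 and 16.0 in replicate 2. The left part of the block had 6.67 in replicate 1 and 8.67 in replicate 2. Median GC content of the joint peaks was 39.5% in the block, 35.1% in the window outside it and 37.7% on the rest of the chromosome. Whether GC content bears on the signal was not tested.

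Set against other stretches of the same size, the window stood out by its signal and not by its number of joint peaks. Chromosome V was tiled outwards from the window into 245 windows of 85 kb, the locus included. The window ranked 1 for summed joint signal, at 4479, against a median of 2549 and a highest value of 3813 among the others. It ranked 1 for median joint signal, at 29.8, against a median of 23.3 and a highest value of 28.7 elsewhere. Its 116 peaks ranked 36, against a median of 104 and a highest count of 142. Its highest single peak, 168, ranked 8, and the highest peak elsewhere reached 396.

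The replicates placed the window in the same way. Summed signal in the window was 1849 in replicate 1, where no other window passed 1391, and 1947 in replicate 2, where no other window passed 1647. Median signal was 20.6 in replicate 1, against at most 19.2 elsewhere, and 23.7 in replicate 2, against at most 22.9 elsewhere. The lead in the median was thus small in both replicates, and larger in the sum. The window's 70 peaks in replicate 1 ranked 3 and its 66 peaks in replicate 2 ranked 25.

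**Figure D3:**
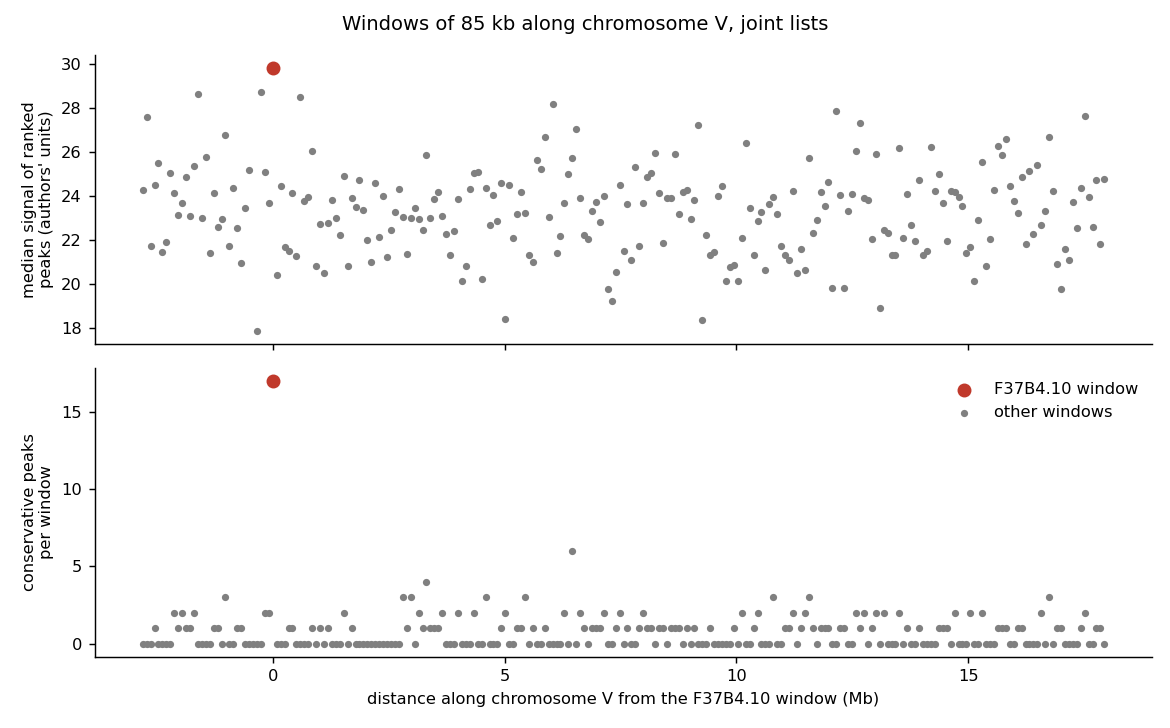
Median signal of joint ranked peaks (upper panel, authors' units) and number of conservative peaks (lower panel) in each 85 kb window of chromosome V, by distance in Mb from the F37B4.10 window (red point). The F37B4.10 window is highest in both panels, narrowly for the median (29.8, against at most 28.7 elsewhere) and by far for conservative peaks (17, against at most 6).

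Peaks that passed the authors' reproducibility threshold were concentrated in and beside the block. The authors' conservative list holds only joint peaks whose irreproducible discovery rate, or IDR, is at most 0.01. That rate is low for peaks that rank alike in the inputs compared. Of the 116 joint peaks in the window 17, or 14.7%, were in this list, against 165 of 24538, or 0.672%, on the rest of chromosome V. Inside the block it was 14 of 43 peaks, and in the window outside the block 3 of 73. Each replicate's own thresholded list held 6 peaks in the window, or 8.57% of the ranked peaks of replicate 1, against 0.126% on the rest of chromosome V, and 9.09% of those of replicate 2, against 0.146%. The window makes up 0.406% of chromosome V and holds 9.34% of its conservative peaks.

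The 17 conservative peaks spanned 33.8 kb between their outermost summits, and their median spacing was 1085 bp. A single gap of 13219 bp, over srj-54, srh-270, srh-272, srh-240 and srh-241, parted the 4 peaks on the left from the 13 on the right. No other span of that length held more than 6 conservative peaks on chromosome II or V, 5 on chromosome I, 4 on chromosome IV or X, or 3 on chromosome III. Their median signal was 91.2, between 37.7 and 168, against 74.7 for the 165 conservative peaks on the rest of chromosome V. On the −log10 scale of the IDR, the members just inside the threshold of the authors were at 2.08, 2.14 and 2.17, and those just outside at 1.82, 1.80 and 1.77.

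These peaks lay in gene bodies more than at gene starts, as did those on the rest of chromosome V. Of the 17 summits 8 were in coding sequence, 5 in introns and 4 between genes, or 47.1%, 29.4% and 23.5%. Among all 43 joint peaks of the block the shares were near these, at 44.2%, 37.2% and 16.3%. The placement is thus not particular to the conservative peaks. The 165 on the rest of chromosome V had 46 in coding sequence, 30 in introns and 55 between genes. A further 26 of the 165 were in exons of pseudogenes or noncoding genes, 5 in 5′ untranslated regions and 3 in 3′ untranslated regions. In both sets a similar share lay from 1000 bp before to 200 bp after the nearest coding start, 5 of 17 and 48 of 165. None of the 17 lay within 200 bp of a noncoding RNA gene, against 37 of 165 elsewhere on the chromosome, and the annotation has no noncoding RNA gene in the window.

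F37B4.10 itself, WBGene00018140, had 6 joint peaks in the gene and 1000 bp to each side, 4 of them conservative. The highest was in its coding sequence, with the summit at 2876632, and had a signal of 135 in the joint list, 71.9 in replicate 1 and 53.0 in replicate 2. It passed the threshold of replicate 1 and not that of replicate 2. A peak in an intron at 2876087 had 94.7 in the joint list, 54.2 in replicate 1 and 52.3 in replicate 2. The peak nearest to the gene's own start was much weaker in the joint list. It lay at 2877912, 303 bp upstream of the start and within the coding sequence of str-39, with a joint signal of 37.7 and 26.5 in replicate 1. The nearest summit of replicate 2 was 159 bp away, had a signal of 67.8 and passed that replicate's threshold, so the replicates differed most at this point in where the summit fell. The fourth conservative peak near F37B4.10 was the one in a folt-2 intron described next.

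folt-2, the folate transporter family gene just left of F37B4.10, had the most joint peaks of the 6 genes. There were 10 within the gene and 1000 bp to each side, 5 of them conservative, and 6 in the gene span alone. The conservative peaks inside the span were those at 2873147 and 2874860, and the others counted for folt-2 lay in the flanks. Its highest peak inside the gene, in coding exon 4 at 2873147, had 163 in the joint list, 76.4 in replicate 1 and 106 in replicate 2. An intron peak at 2874860 had 94.6 in the joint list, 39.6 in replicate 1 and 45.2 in replicate 2. Beyond its end, the intergenic peak at 2872352 had 168 in the joint list, 97.6 in replicate 1 and 73.9 in replicate 2. The coding and the intergenic peak passed the threshold in both replicates, and replicate 2 was the higher in the first and replicate 1 in the second. Replicate 1 passed a further peak at 2874216, in a folt-2 intron, with 50.6.

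srh-243, a chemoreceptor gene of the srh family, shares that intergenic peak with folt-2, and most of its signal comes from there. The peak in its own coding sequence, at 2871471, had 72.9 in the joint list, 31.8 in replicate 1 and 38.5 in replicate 2. Without the 1000 bp flank its highest joint signal was 72.9 in place of 168.

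str-39, a chemoreceptor gene of the str family on the other side of F37B4.10, had 5 joint peaks within the gene and 1000 bp to each side. Its highest, 361 bp upstream of its start at 2880262, had 82.4 in the joint list, 39.3 in replicate 1 and 41.4 in replicate 2. Within the gene span alone the highest joint signal was 52.9. The replicate 2 peak of 67.8 in its coding sequence is the one that lies upstream of F37B4.10.

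ifc-1, the intermediate filament gene, carried the strongest peaks to the right of F37B4.10, and replicate 2 was the higher in each of them. The peak in coding exon 5 at 2883297 had 140 in the joint list, 45.9 in replicate 1 and 81.1 in replicate 2, and passed the threshold of replicate 2. The intron peak at 2882420 had 101, 47.9 in replicate 1 and 59.0 in replicate 2. The peak in coding exon 2 at 2881886 had 97.1, 26.5 in replicate 1 and 67.2 in replicate 2. The last pair passed in both replicates. A peak 450 bp upstream of ifc-1, at 2880943, had 65.3 in the joint list, 31.1 in replicate 1 and 38.7 in replicate 2.

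sre-24, a chemoreceptor gene of the sre family at the right edge, had 1 conservative peak, in coding exon 1 at 2885080, with 87.5 in the joint list. There replicate 1, at 55.1, was higher than replicate 2, at 36.7. It is the last conservative peak on that side, and its summit falls in the first bin beyond the block.

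Taken by the highest joint signal within the gene and 1000 bp to each side, the 6 genes came in the order folt-2 and srh-243, both at 168, ifc-1 at 140, F37B4.10 at 135, sre-24 at 87.5 and str-39 at 82.4. The replicates did not keep this order. In replicate 1 folt-2 and srh-243 at 97.6 were followed by F37B4.10 at 71.9, sre-24 at 55.1, ifc-1 at 47.9 and str-39 at 39.3. In replicate 2 folt-2 at 106 was followed by ifc-1 at 81.1, srh-243 at 73.9, F37B4.10 and str-39, both at 67.8, and sre-24 at 36.7. folt-2 was at the top in each list, and the places of ifc-1, F37B4.10, sre-24 and str-39 differed between the replicates. The same quantity had a median of 39.1 over the 4994 protein-coding genes of chromosome V in the joint list, 19.7 in replicate 1 and 23.6 in replicate 2.

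High values covered most genes of the block, and more of them in the joint list and replicate 1 than in replicate 2. The block was defined on the summed joint signal, so this is no independent support for it. All 6 listed genes were above the 95th percentile of chromosome V genes in the joint list, 65.7, a limit that 4.77% of chromosome V genes outside the window passed. In replicate 1 all 6 passed that replicate's limit of 34.1, against 4.75% of the genes outside the window. In replicate 2 it was 5, with sre-24 below the limit of 40.1, against 4.87% outside the window. Of the 13 genes that overlap the block 12 were above the limit in the joint list, 12 in replicate 1 and 8 in replicate 2. Of the 13 other genes in the window 1 was above it in the joint list, 1 in replicate 1 and 0 in replicate 2. The conservative peaks at 2851252, 2854563 and 2885080 lay outside the block, close to its edges. A conservative peak lay within 1000 bp of 10 of the 26 genes of the window, against 3.82% of chromosome V genes outside it.

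The other 7 genes of the block are all chemoreceptor genes and had a median highest joint signal of 71.6. srj-57, of the srj family, had 86.9 in the joint list, 45.1 in replicate 1 and 45.7 in replicate 2, from a peak in coding exon 2 at 2855069. srj-55 and srj-54 share a peak at 2858252, 310 bp upstream of srj-55, with 91.2 in the joint list, 42.1 in replicate 1 and 43.0 in replicate 2. In srh-272 the joint value was 71.6, with 41.9 in replicate 1 and 19.99 in replicate 2. srh-240 and srh-241 shared a joint value of 70.7, with 42.5 in replicate 1 and 35.1 in replicate 2. srh-270 was the lowest of the block at 43.4, below the 95th percentile.

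Beyond the edges most values were lower. On the left, ugt-53, a gene of the UDP-glucuronosyltransferase family, had a conservative intron peak at 2851252 with 68.9 in the joint list, 36.3 in replicate 1 and 32.9 in replicate 2. It is the gene outside the block that passed the 95th percentile. srj-49, the next gene to its left, had 42.5 in the joint list and 36.1 in replicate 2, with no listed peak in replicate 1. On the right, srw-4, a chemoreceptor gene of the srw family, had 29.3 in the joint list, no listed peak in replicate 1 and 16.7 in replicate 2. The 13 genes outside the block had a median of 33.9 in the joint list, 17.4 in replicate 1 and 17.7 in replicate 2, below the chromosome's medians.

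**Figure D4:**
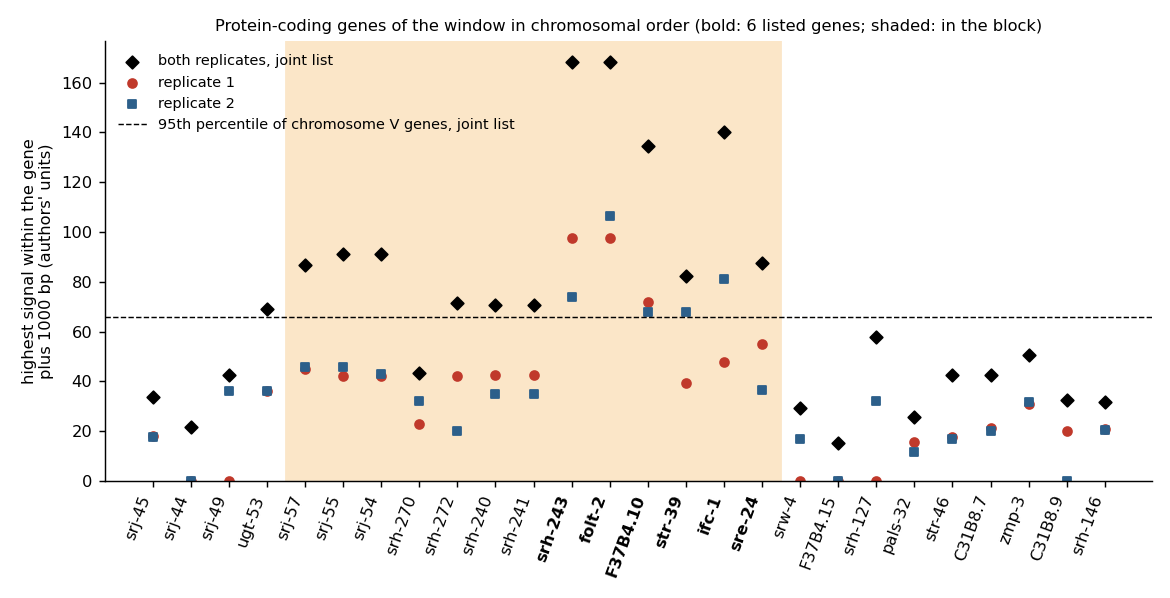
Highest signal within each protein-coding gene and 1000 bp to each side (y axis, authors' units) for the 26 genes of the window in chromosomal order, in the joint list and in each replicate. In the joint list the 6 listed genes (bold) are all above the dashed line at 65.7, genes of the shaded block other than srh-270 are too, and of the genes outside it ugt-53 alone is. Points at 0 are genes with no peak in that list.

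Among chemoreceptor genes, those of the block had the high values. Since the block was defined on the summed joint signal, this gives the size of the difference and no independent support for the block. The 10 chemoreceptor genes of the block had a median highest joint signal of 84.7, and 9 were above the 95th percentile. The 7 in the window outside the block had a median of 33.9, with 0 above it. The 875 on the rest of chromosome V had a median of 34.9, and 12 of them, or 1.37%, were above it. Conservative peaks lay at 6 of the 10, 0 of the 7 and 10 of the 875. sre-24 is counted among the 10 by its first bases, and its value of 87.5 comes from a summit just outside the block.

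Relatives of the listed genes elsewhere in the genome had lower values in most families. folt-2, at 168, stood beside 38.0 for folt-3 and 32.3 for folt-1, the other genes of the family. ifc-1, at 140, stood beside a median of 45.5 and a highest value of 62.5, in ifc-2, among 9 other intermediate filament genes. srh-243 at 168 was above all 213 srh genes outside the window, of which srh-220 was the highest at 79.7. That 168 is the intergenic peak shared with folt-2, and without the flank srh-243 had 72.9. The remaining chemoreceptor genes were not the highest of their families. sre-24, at 87.5, came after sre-23 at 120, and str-39, at 82.4, came after str-56 at 112, while the medians of the other members were 38.2 over 53 sre genes and 34.6 over 191 str genes.

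Replicates matched more often in the block than around it. A peak was called matched when the other replicate had a summit within 150 bp. In the block 23 of 33 peaks of replicate 1, or 69.7%, and 22 of 37 of replicate 2, or 59.5%, were matched. On the rest of chromosome V it was 43.8% of replicate 1 and 40.3% of replicate 2. In the window outside the block the shares were 32.4% in replicate 1 and 41.4% in replicate 2, so that over the whole window 50% of replicate 1 peaks and 51.5% of replicate 2 peaks were matched. The share of replicate 1 ranked 42 and that of replicate 2 ranked 21 among 244 windows of 85 kb, inside the usual range. The block also holds more peaks per kb in each replicate, and the part of that density in the match share was not tested.

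Matched peaks of the block departed from equal signal in both directions. The median log2 ratio of replicate 2 over replicate 1 was 0.02 over the 23 matched block peaks, with quartiles of −0.35 and 0.31. It was 0.25 over 5223 on the rest of chromosome V, with quartiles of −0.22 and 0.74. This sets lists of separate replicates side by side and assumes that their scale is the same. Spearman's rho between the replicates was 0.717 over the 23 block peaks and 0.282 on the rest of chromosome V, where the range of signal is narrower for most peaks. The conservative list was selected for peaks that rank alike in the inputs compared, so matching there is no independent sign of agreement. Of the 17 conservative peaks 17 had a match in replicate 1 and 16 in replicate 2. Replicate 2 was higher in 11 of those 16, and the log2 ratio ran between −0.59 in sre-24 and 1.35 in coding exon 2 of ifc-1.

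**Figure D5:**
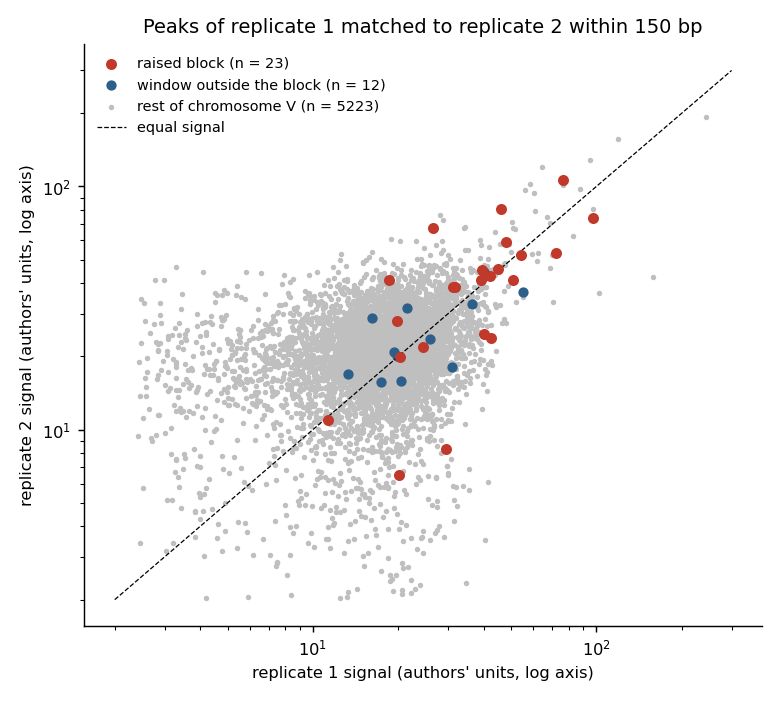
Signal in replicate 2 (y axis) against replicate 1 (x axis), both in the authors' units on log axes, for replicate 1 peaks with a replicate 2 summit within 150 bp. The 23 block peaks (red) lie on both sides of the dashed line of equal signal, some of them far from it, and mostly towards the upper right of the 5223 matched peaks on the rest of chromosome V (grey), and the 12 peaks of the window outside the block lie within the grey cloud.

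The other gene named in the transgene label is unc-119, on chromosome III at chrIII:10902641-10908935, and it showed no comparable rise. It had 11 joint peaks within the gene and 1000 bp to each side, the highest at 54.0. In the 85 kb around it median signal was 25.05, against 23.9 on chromosome III, in the joint list, 13.9 against 16.0 in replicate 1 and 20.1 against 19.2 in replicate 2, and there were 0 conservative peaks. The labels do not say from which species or stretch the marker copy comes. Whether the number of transgene copies bears on the signal of the block was not tested, and the control library was not analysed here.

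The 3 windows of chromosome V with the most joint peaks had lower median signal than the locus. Measured over both replicates per 85 kb, these had 142, 139 and 134 peaks, against 116 at the locus. Their medians were 20.9, 22.5 and 27.3, against 29.8 at the locus, and each had 1 conservative peak. The genes nearest to their highest peaks were cyp-32B1, F36F12.3 and glb-14, with highest signals of 82.6, 78.5 and 81.3.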

How the data were processed

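The authors deposited peak lists without headers, with ce11 positions according to README files. The aligner, peak caller and read numbers were not given in the sources used here, which leaves the depth unknown. Each peak has a deposited whole-number score, the authors' signal value, whose scale is not stated, and in ranked lists the authors' −log10 of the local and of the global IDR. Single-replicate lists came from 1 replicate's alignment and a control library, and joint lists from both, according to the same files. The global IDR was used to check that every thresholded peak is past the limit of 0.01. The reverse was not checked, and the score was only compared with the global IDR. In the joint lists 16 columns of values per input, which name no sample, were not used.

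Positions are 1-based, and a summit is the start plus the offset given in the file. Genes are those of Ensembl release 115, and sequences are RefSeq's. Gene values are counts, sums and highest signals over summits in the gene span plus 1000 bp, so neighbours can share a peak, as can overlapping genes. Relatives were matched by symbol stem. The ife genes, which encode translation initiation factors, were left out of the intermediate filaments. Named genes are the 6 listed, those within 1000 bp of the 10 highest or of a conservative peak, the first beyond each edge, unc-119, folt and ifc relatives, and the gene nearest to the highest peak of the 3 windows with most peaks. Other genes, the division of the block into a shared and a left part, and the chemoreceptor grouping were chosen after their values were seen. The members and lists were chosen with earlier results of these data known.

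The alternatives were the other joint list, each replicate alone, other bins, bin measures, tilings, distances and flanks, peaks above the median signal, and local IDR in place of signal. The edge finder was checked on shuffled signals with a planted block, and the matching on peaks moved by known distances. The planted block was raised more strongly than the block found here, so that check does not show how well these edges are placed. Python 3.11.15, numpy 2.4.6, pandas 2.3.3 and matplotlib 3.10.9 were used.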

Additional observations from a re-analysis of the deposited data

How the results depend on the processing

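Of 50 alternative values of the main results 28 stayed close to the reported value and 22 moved. Close meant within the standard deviation between the replicates or, for thresholded peaks and numbers of genes or families, within a fixed fold. That limit was 14142 bp for the left edge and 0 bp for the right edge, so a left edge at 2850001 counted as close. The split is thus no even measure of robustness. Relative to the median of the other windows, the window's number of joint peaks was 1.12 as reported, 1.22 to 1.40 with 1 replicate and 1.55 over peaks above the median signal. Its median signal was 1.28 times theirs as reported, 1.33 in the other joint list, 1.27 to 1.29 with 1 replicate, 1.297 with windows tiled from the chromosome's start, 1.16 over peaks above the median and 1.45 for local IDR in place of signal. The 17 thresholded peaks became 6 to 6 with 1 replicate. The left edge at 2855001 moved to 2870001 with 2 kb bins, to 2850001 and 2870001 with 1 replicate, and to 2905001 when bins held the number of peaks. The right edge at 2885000 became 2884000 with 2 kb bins, 2890000 with 10 kb bins or the highest signal per bin, and 2910000 by number of peaks, and stayed at 2885000 with either replicate alone. Counting peaks in place of signal thus finds the zmp-3 bin and not the block. The match share of 50% was 37.1% within 75 bp, 57.1% within 300 bp and 54.9% over peaks above the median signal, and the log2 replicate ratio of 0.014 was 0.022 within 75 bp and 0.053 over those peaks. Of the 5 families compared, the listed gene was the highest in 3, or in 5 with a flank of 2000 bp, which gives str-39 and sre-24 peaks of their neighbours. The cause of the other shifts was not tested. With no read depth, the error of a single peak's signal is unknown, and the edges are known to no better than a bin.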

Other observations

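Outside the F37B4.10 locus, the 85 kb windows of chromosome V with the most conservative peaks, picked after their values were seen, held 6, 4 and 3, against 17 at the locus. The highest peaks of these windows lay at tos-1, W06H8.6 and Y43F8C.7, with signals of 121, 92.4 and 111. Their median joint signals were 25.7, 25.9 and 26.7, against 29.8 at the locus. In the window outside the block 12 of 73 joint peaks had summits in exons of pseudogenes, with a median signal of 27.0. None of the 43 block peaks did, and none could, because the 8 pseudogenes of the window all lie outside the block.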
